A study of Mus musculus with 8 samples.

Results

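The RNA exosome is the complex that degrades and trims RNA from its 3′ end, and dyskerin is the enzyme that converts uridine to pseudouridine at sites chosen by guide RNAs. The genes described here are Exosc1, Exosc2, Exosc3, Exosc4, Exosc5, Exosc7, Exosc8, Exosc9 and Exosc10, which encode exosome subunits, and Dkc1, which encodes dyskerin. They were chosen by gene symbol and not by a measured value, but with earlier results of these data known. They make up 10 of the 12896 genes listed. All 10 passed the filter of at least 40 reads summed over the libraries.

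Quadriceps muscle came from male CD2F1 mice that were 8 weeks old when treatment began. Mice of the Folfiri group (n = 4) received 30 mg/kg of 5-fluorouracil (5-FU), 90 mg/kg of leucovorin and 24 mg/kg of CPT-11 (irinotecan) by intraperitoneal injection, 2 times a week for up to 5 weeks, and mice of the Vehicle group (n = 4) received the vehicle alone. The mice carried no tumour and no engineered allele is named for them. Poly(A) RNA of whole muscle was sequenced, so the levels below are those of mRNA over all cell types of the tissue. The comparison asks whether mRNA of these genes differed after a regimen that contains 5-FU, a base analogue that enters RNA.

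In the exosome, a barrel of RNase PH-like ring subunits and a cap of RNA-binding subunits lead RNA to the nucleases, Exosc10 (Rrp6 in yeast) and a protein of the Dis3 family. The mammalian ring and cap hold RNA but do not cut it. The complex finishes the 3′ ends of 5.8S rRNA and small nucleolar RNAs and removes faulty transcripts in the nucleus, and it degrades mRNA in the cytoplasm. Dyskerin works in H/ACA particles, which modify rRNA and spliceosomal RNA and also stabilise the RNA of telomerase. In yeast, strains that lack Rrp6 are hypersensitive to 5-FU, and pseudouridine synthases bind RNA that contains fluorouracil. In humans, changes in DKC1 cause X-linked dyskeratosis congenita, and changes in EXOSC3, EXOSC8 or EXOSC9 cause diseases of the cerebellum and the motor neurons.

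The promoters of 3 of the genes are shown because these genes mark the range of the data. Exosc5 had the largest coefficient of variation within each group, Exosc8 had the smallest p of the 10, and Dkc1 varied least in Vehicle muscle. Each window, from RefSeq on GRCm38.p6, runs from 250 bases before to 50 bases after the annotated start, is written 5′ to 3′ on the strand of the gene, and was found once on its chromosome in NCBIM37, the assembly of mm9, at the coordinates given. Windows were matched by symbol for 8 of the 10 genes. Capitals mark the motifs searched on both strands: the E-box, spelled CACGTG, the ETS motif CCGGAAG, the core of the NRF1 site, TGCGCA, the core of the YY1 site, AAGATGG, and the TATA box, TATAAA. None of them overlapped another here.
Exosc5, chr7:26443922-26444221, plus strand: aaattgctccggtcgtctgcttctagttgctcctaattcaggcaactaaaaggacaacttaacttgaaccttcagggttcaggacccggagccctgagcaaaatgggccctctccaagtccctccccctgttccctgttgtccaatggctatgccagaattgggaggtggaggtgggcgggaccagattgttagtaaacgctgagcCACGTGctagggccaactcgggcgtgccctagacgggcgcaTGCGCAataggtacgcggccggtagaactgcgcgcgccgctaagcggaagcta
Exosc8, chr3:54539237-54539536, minus strand: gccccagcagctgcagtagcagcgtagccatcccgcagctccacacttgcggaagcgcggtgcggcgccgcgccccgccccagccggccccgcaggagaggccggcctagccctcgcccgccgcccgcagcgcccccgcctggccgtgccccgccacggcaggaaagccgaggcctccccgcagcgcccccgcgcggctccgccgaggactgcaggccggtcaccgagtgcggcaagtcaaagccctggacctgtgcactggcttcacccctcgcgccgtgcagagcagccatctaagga
Dkc1, chrX:72340943-72341242, plus strand: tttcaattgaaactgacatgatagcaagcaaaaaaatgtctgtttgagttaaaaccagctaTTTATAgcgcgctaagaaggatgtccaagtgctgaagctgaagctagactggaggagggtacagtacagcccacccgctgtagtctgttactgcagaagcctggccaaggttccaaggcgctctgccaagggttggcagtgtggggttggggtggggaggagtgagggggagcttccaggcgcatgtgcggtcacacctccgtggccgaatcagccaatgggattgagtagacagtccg

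The Exosc5 window held an E-box that began 44 bases before the start and an NRF1 core that began 3 bases before it. Of 32851 mouse promoter windows of this length, 7.15% held the E-box and 7.76% the NRF1 core. The latter was also present in the windows of Exosc1 and Exosc2. The window of Exosc8 held none of these letters, and its 250 bases before the start were 78% G or C, with 33 CpG dinucleotides. In Dkc1 the same stretch was 52% G or C with 5 CpG, where the median of all windows was 52.4% G or C. It held the TATA box on the opposite strand, 189 bases before the start, a motif found in 13.6% of windows. The ETS motif, present in 8.86% of windows, lay in those of Exosc3 and of a second start of Exosc10, and the YY1 core, present in 6.34%, in that of Exosc2. These are matches of letters, and no binding was measured.

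mRNA of the 10 genes was present in every library, and 0 of them passed the test between Folfiri and Vehicle muscle. The libraries held 8505985 to 21056818 reads in genes, and each gene was compared by edgeR's quasi-likelihood test, which sets the difference between groups against the spread between the mice. Levels are in CPM, gene counts scaled by TMM to a common library size. Over all 12883 genes tested, 0.00776% (1 gene) had a Benjamini-Hochberg adjusted p under 0.05. The adjusted p of the 10 genes ran from 0.644 to 0.959 by that test. At an unadjusted p under 0.05 the count was again 0 of 10, where 9.5% of all genes passed, 5.48% higher and 4.02% lower in Folfiri. In each of the 10 genes the Vehicle and Folfiri libraries overlapped, whereas the groups were separate in 5.53% of all genes, 2.87% higher and 2.66% lower.

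The plot of levels by library shows this overlap gene by gene. The differences were uncertain, and the 95% interval of Exosc5 reached 1.83-fold. All 10 log2 fold changes were under 0.4 in size, a limit that was not planned, as were those of 77.2% of all genes. All 10 intervals (95%) lay within a 2-fold change in either direction, as did 72.9% of all. The log2 fold change of Folfiri over Vehicle was above 0 in 7 of the 10 genes and in 51.4% of all genes. Its median was 0.15 over the 10 genes and 0.01 over all genes, and leaving out single libraries brought the former down to 0.082 without Vehicle 1, 0.099 without Vehicle 2 and 0.092 without Folfiri 2. A difference in a whole-muscle sample can come from fewer cells of a type or from less RNA per cell, and these cannot be told apart.

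**Figure D1:**
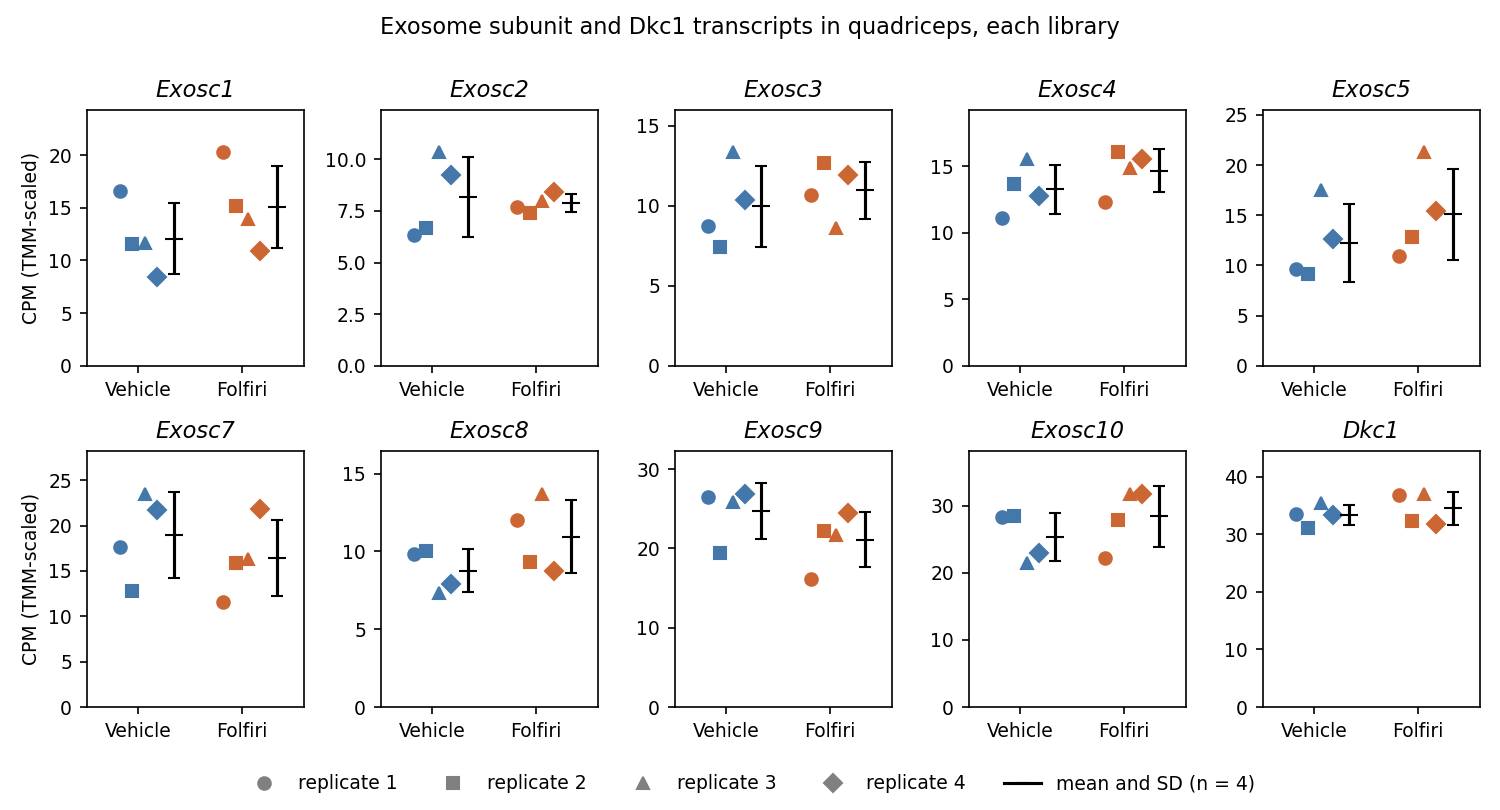
Level of each gene in CPM (vertical axis, from 0) in 4 Vehicle (blue) and 4 Folfiri (orange) libraries, with a symbol for each replicate number and the mean and SD of each group. In all 10 genes the points of the groups overlap. Exosc5 in Vehicle spreads from 9.12 to 17.5 CPM, while Dkc1 in Vehicle spreads from 31.1 to 35.4 CPM.

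Several values bear on every result here and their part in it was not tested. The summed CPM of 9 muscle-fibre markers, of which Myh4 was the most abundant, was 119035 to 191903 in Vehicle and 95607 to 177583 in Folfiri, with the lowest sums in Folfiri 1 and Vehicle 2. Hepatocyte markers (11 of 12 listed, Alb most abundant) summed to 0.884 to 11.1 CPM in Vehicle and 13.3 to 283 CPM in Folfiri, with the highest value in Folfiri 1. Adipocyte markers (9 of 9, Fabp4 most abundant) reached 1997 CPM in Vehicle 2, against 443 to 997 in the other Vehicle and 338 to 781 in the Folfiri libraries. Brown adipocyte markers (7 of 7, Cpt1b, which muscle fibres also express, most abundant) reached 1360 CPM in Vehicle 2 and 553 to 749 in all other libraries. Macrophage markers (10 of 10, Lyz2 most abundant) summed to 73.1 to 124 CPM in Vehicle and 136 to 193 in Folfiri, so that these groups did not overlap. Erythroid markers (4 of 8, Hbb-b1 most abundant) ran from 63.8 to 143 CPM in Vehicle and 17.8 to 99.3 in Folfiri. Of these 4 genes 3 had a log2 fold change below 0 and 1 above, at 3.56. Markers of proliferating cells (3 of 9, Mcm5 most abundant) ran from 1.02 to 2.75 CPM in Vehicle and 2.30 to 5.56 in Folfiri. No marker counted here was at 0 in all libraries of a group.

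The cap is formed by Exosc1, Exosc2 and Exosc3, which bind RNA at the mouth of the barrel. Exosc1 (Csl4 in yeast, chr19:41997470-42007804 on mm9, minus strand) was measured at 16.6, 11.5, 11.6 and 8.44 CPM in Vehicle 1 to 4 and at 20.2, 15.1, 13.9 and 10.9 CPM in Folfiri 1 to 4. Vehicle 1 and Folfiri 1 were the highest of their groups and both libraries numbered 4 the lowest, and Vehicle 1 lay above 3 of the Folfiri libraries. The means were 12.1 ± 3.38 and 15.1 ± 3.89 CPM (SD, n = 4 each), and the log2 fold change was 0.32 (95% interval -0.21 to 0.84, edgeR adjusted p = 0.691). This difference of Exosc1 was 0.14 without Folfiri 1 and 0.52 without Vehicle 1. A stretch on chromosome 11 had 82.8% identity to 63.9% of the Exosc1 transcript, and whether it took or gave reads was not tested.

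Exosc2 (Rrp4 in yeast, chr2:31526257-31536827, plus strand) had the fewest reads of the 10, 880 over all libraries. Its levels were 6.35, 6.70, 10.3 and 9.24 CPM in Vehicle and 7.68, 7.42, 7.99 and 8.43 CPM in Folfiri muscle. The Folfiri libraries all lay inside the Vehicle range. Their coefficient of variation, 5.53%, was smaller than the 9.73% that counting alone gives on average over all 8 libraries. The log2 fold change of -0.04 had a 95% interval from -0.49 to 0.40, and it ran from -0.15 without Vehicle 1 to 0.085 without Vehicle 3, with 0.029 without Vehicle 4. Scaled by library totals it was 0.085, but that scaling moves the median of all genes from 0.011 to 0.14, and Exosc2 differed from that median by -0.053 under TMM and by -0.054 under totals.

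Exosc3 (Rrp40 in yeast, chr4:45329502-45333475, minus strand) stood at 8.75, 7.42, 13.3 and 10.4 CPM in Vehicle and 10.7, 12.7, 8.59 and 11.9 CPM in Folfiri. Vehicle 3 was the highest library and Vehicle 2 the lowest, so that Vehicle spanned the whole range of Folfiri. The log2 fold change was 0.15 (95% interval -0.32 to 0.62). It was 0.03 without Vehicle 2 and 0.31 without Vehicle 3.

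The ring subunits resemble bacterial RNase PH. Exosc4, the counterpart of yeast Rrp41, pairs in the ring with Exosc9, and Exosc5 (yeast Rrp46) with Exosc8 (yeast Rrp43). Exosc7 (yeast Rrp42) pairs with Exosc6, which was not among the 10 genes. Of the 5 ring genes measured here, Exosc4, Exosc5 and Exosc8 had a log2 fold change above 0 and Exosc7 and Exosc9 below 0, and 0 passed the test.

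Exosc4 (chr15:76157827-76161100, plus strand) was at 11.1, 13.7, 15.6 and 12.8 CPM in Vehicle and 12.3, 16.1, 14.8 and 15.5 CPM in Folfiri. Folfiri 1 was the only Folfiri library under 14 CPM. The log2 fold change was 0.15 (95% interval -0.22 to 0.52), from 0.072 without Vehicle 1 to 0.23 without Vehicle 3. It was 0.25 without both Vehicle 2 and Folfiri 1.

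Exosc5 (chr7:26444172-26453051, plus strand) had the largest coefficient of variation within each group. Its levels were 9.63, 9.12, 17.5 and 12.6 CPM in Vehicle and 10.9, 12.8, 21.3 and 15.4 CPM in Folfiri. Vehicle 3 and Folfiri 3 were the highest of their groups. The coefficient of variation was 31.5% in Vehicle and 29.8% in Folfiri, against 7.62% from counting on average over all 8 libraries. The log2 fold change of 0.31 (95% interval -0.25 to 0.87, edgeR adjusted p = 0.714) became 0.10 without Folfiri 3 and 0.53 without Vehicle 3.

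Exosc8 (chr3:54532601-54539286, minus strand) was at 9.84, 10.004, 7.32 and 7.88 CPM in Vehicle and 11.99, 9.29, 13.7 and 8.77 CPM in Folfiri. Folfiri 1 and Folfiri 3 lay above every Vehicle library, and Folfiri 2 and Folfiri 4 lay among them. The means of 8.76 ± 1.36 and 10.9 ± 2.33 CPM (SD, n = 4 each) gave a log2 fold change of 0.31 (95% interval -0.13 to 0.76, edgeR adjusted p = 0.644). By its unadjusted p in edgeR, Exosc8 took rank 3077 of all genes, the first of the 10. Its log2 fold change was 0.18 without Folfiri 3 and 0.40 without Folfiri 4.

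Exosc7 (chr9:123022349-123045247, plus strand) was at 17.7, 12.8, 23.5 and 21.7 CPM in Vehicle and 11.6, 15.9, 16.3 and 21.8 CPM in Folfiri. Folfiri 1 and Vehicle 2 were the lowest of their groups, and Folfiri 4 lay above 3 Vehicle libraries. The log2 fold change was -0.20 (95% interval -0.71 to 0.30). It was -0.07 without Folfiri 1 and -0.37 without Folfiri 4.

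Exosc9 (chr3:36451528-36464649, plus strand), known in humans as the PM/Scl-75 autoantigen, was at 26.4, 19.4, 25.9 and 26.9 CPM in Vehicle and 16.2, 22.2, 21.7 and 24.4 CPM in Folfiri. Vehicle 1, 3 and 4 lay above every Folfiri library, and Vehicle 2 lay below 3 of them. The means were 24.7 ± 3.51 and 21.1 ± 3.52 CPM (SD, n = 4 each), giving a log2 fold change of -0.22 (95% interval -0.62 to 0.17, edgeR adjusted p = 0.71). This difference was -0.12 without Folfiri 1, -0.32 without Vehicle 2 and -0.21 without both Folfiri 1 and Vehicle 2. The 3′ end of Exosc9 overlaps that of Ccna2, on the opposite strand, by 863 bases. Ccna2 had 67 reads over all libraries and Exosc9 2550, and whether strand was used in counting is not given in the sources used here.

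**Figure D2:**
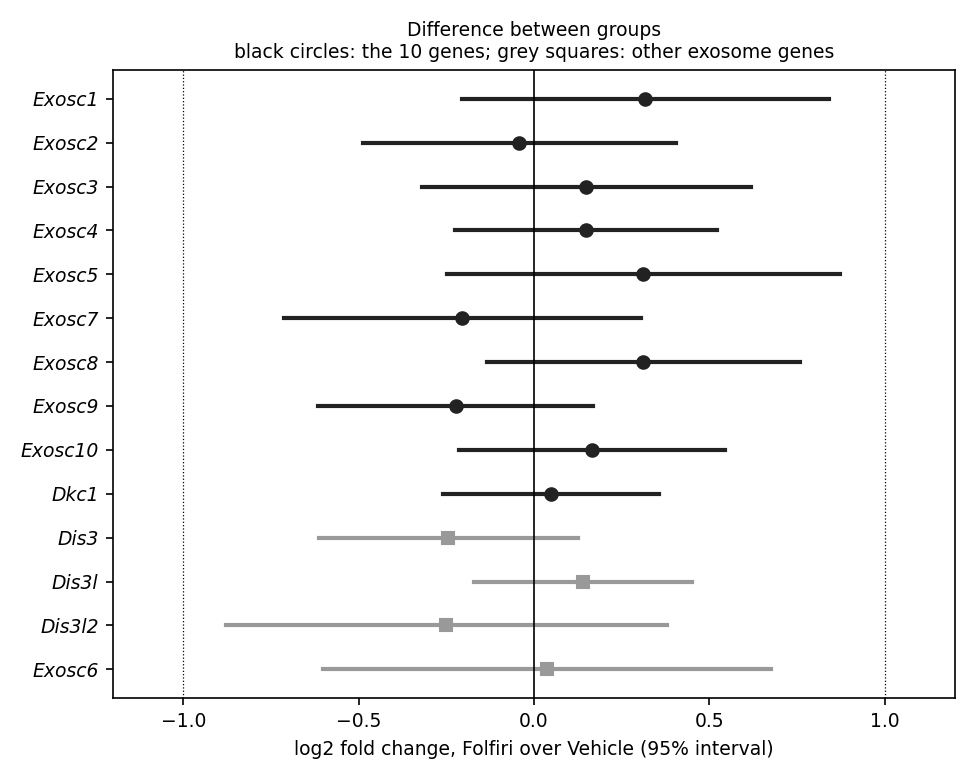
Log2 fold change of Folfiri over Vehicle (horizontal axis) with its 95% interval for the 10 genes (black circles) and for 4 other exosome genes (grey squares); dotted lines mark a 2-fold change. Every interval spans 0, and those of the 10 genes end inside the dotted lines.

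Exosc10, the nuclear 3′ to 5′ exonuclease and in humans the PM/Scl-100 autoantigen, lies at chr4:147932536-147956509 on the plus strand. Its levels were 28.3, 28.4, 21.4 and 22.99 CPM in Vehicle and 22.3, 27.8, 31.8 and 31.8 CPM in Folfiri. Folfiri 3 and Folfiri 4 were above every Vehicle library, while Folfiri 1 was below 3 of them. The means of 25.3 ± 3.59 and 28.4 ± 4.52 CPM (SD, n = 4 each) gave a log2 fold change of 0.17 (95% interval -0.21 to 0.55, edgeR adjusted p = 0.781), from 0.097 without Vehicle 3 to 0.27 without Folfiri 1. It was 0.33 without both Folfiri 1 and Vehicle 2.

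Dkc1 (chrX:72341193-72355115, plus strand) had the smallest span over the 8 libraries among the 10 genes and the most reads, 3786 in all. It was measured at 33.5, 31.1, 35.4 and 33.3 CPM in Vehicle and 36.9, 32.2, 37.1 and 31.8 CPM in Folfiri. The highest library was 1.19 times the lowest, whereas this ratio was 2.40 for Exosc1. The coefficient of variation was 5.28% in Vehicle and 8.34% in Folfiri, and counting alone gives 4.72% on average over all 8 libraries. The means of 33.4 ± 1.76 and 34.5 ± 2.88 CPM (SD, n = 4 each) differed by a log2 fold change of 0.05, with a 95% interval from -0.26 to 0.36, by 0.0061 without Folfiri 3 and 0.086 without Folfiri 4, and by -0.012 without both Vehicle 2 and Folfiri 1. On the linear scale the interval over all 8 libraries ran from 0.836-fold to 1.28-fold. Dkc1 has 4 copies elsewhere in the genome that match at least 30% of its transcript at 81.1% to 89.0% identity. Whether reads were split with them was not tested. It also overlaps Mpp1, on the opposite strand, by 44 bases.

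Between genes, levels were compared as CPM per kb of transcript. In Vehicle muscle the order by mean was Exosc7 (18.3 ± 4.58 CPM per kb, SD, n = 4), Exosc9 (15.3 ± 2.17), Dkc1 (11.9 ± 0.628), Exosc5 (11.0 ± 3.47), Exosc3 (9.64 ± 2.47), Exosc10 (8.87 ± 1.26), Exosc4 (7.43 ± 1.03), Exosc1 (7.43 ± 2.08), Exosc8 (6.83 ± 1.06) and Exosc2 (5.03 ± 1.196). Every pair of neighbours in this order overlapped. The ends of the order were further apart, since the lowest Vehicle library of Exosc7 held 12.4 CPM per kb and the highest of Exosc2 held 6.37. The median of all genes tested stood at 5.24 CPM per kb in Vehicle. Among these genes, which had passed the filter on reads, the 10 ranked from the 49.1 percentile (Exosc2) to the 78.7 percentile (Exosc7). In Folfiri muscle Exosc7 was again first, at 15.8 ± 4.06 CPM per kb, and Exosc2 again last, at 4.86 ± 0.269, while Exosc5, at 13.6 ± 4.05, took the place after Exosc7. Only Exosc4 and Exosc2 did not overlap among neighbours there.

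Summed by role, the cap genes came to 18.4 to 26.4 CPM per kb in Vehicle and 21.8 to 27.6 in Folfiri libraries. The 5 ring genes came to 48.1 to 68.9 CPM per kb in Vehicle and 47.2 to 67.3 in Folfiri. Exosc10 alone ran from 7.52 to 9.96 and from 7.81 to 11.2 CPM per kb. Each of these ranges overlapped between the groups. Exosc6 is the ring gene outside the 10, and was singled out once its values were known. It stood below the others, at 1.52 ± 0.229 CPM per kb in Vehicle and 1.57 ± 0.304 in Folfiri (SD, n = 4 each). Its log2 fold change was 0.04 (95% interval -0.60 to 0.68).

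**Figure D3:**
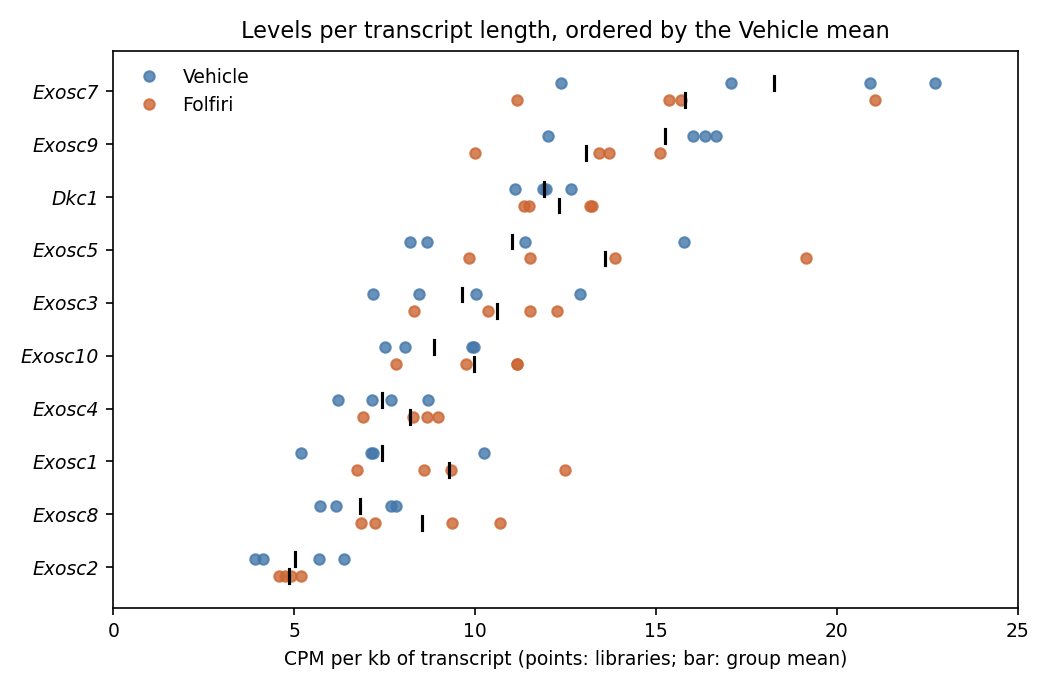
CPM per kb of transcript (horizontal axis, from 0) of the 10 genes in each Vehicle (blue) and Folfiri (orange) library, with a bar at each group mean, ordered by the Vehicle mean. Exosc7 at 18.3 and Exosc2 at 5.03 CPM per kb are the ends of the Vehicle order, and neighbouring genes overlap.

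The genes did not share a common pattern over the libraries. Over 45 pairs of the 10 genes, the median Pearson r of log2 CPM in 8 libraries was 0.083, from -0.722 to 0.907, and 27 were above 0. All pairs share the same libraries, scaling and depth. The highest value was that of Exosc7 and Exosc9 (r = 0.907, exact permutation p = 0.00146, 0.0658 after adjustment over the 45 pairs). Spearman's rho for this pair was 0.786 (exact permutation p = 0.0279, adjusted 0.553). Without Vehicle 3 and Folfiri 1, the libraries farthest from the median of Exosc7, r was 0.854. Exosc7 and Exosc9 were both lowest in Folfiri 1 and Vehicle 2, the libraries with the lowest muscle-fibre marker sums. The sum in Folfiri 2, 121112 CPM, was close to the 119035 CPM of Vehicle 2. Exosc7 and Exosc9 were at 15.9 and 22.2 CPM in Folfiri 2, against 12.8 and 19.4 CPM in Vehicle 2. The part of fibre content in these levels was not tested. The lowest value was that of Exosc7 and Exosc8 (r = -0.722, exact permutation p = 0.0424, adjusted 0.454), with rho at -0.786 (exact permutation p = 0.0279, adjusted 0.553). Without the same 2 libraries r was -0.51. After adjustment 0 of the 45 pairs passed. The pooled values include the difference between the groups. With each group's mean removed, a step added after the pooled values were seen, r was 0.913 for Exosc7 and Exosc9 (exact permutation within groups p = 0.0139, adjusted 0.312) and -0.70 for Exosc7 and Exosc8 (exact permutation p = 0.0799, adjusted 0.526). The lowest centred r was then that of Exosc3 and Exosc8, -0.883 (exact permutation p = 0.00521, adjusted 0.234), and 0 of the 45 pairs passed.

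By library, 8 of the 10 genes lay below their own mean in Vehicle 2 and 7 of 10 above it in Vehicle 3, with median deviations of -0.20 and 0.18 on the log2 scale. In Folfiri 1 these numbers were 6 below and 4 above, with Exosc1 and Exosc8 among those above and Exosc7 and Exosc9 the furthest below. In Folfiri 3 and in Folfiri 4, 7 of 10 lay above their own mean, at median deviations of 0.09 and 0.14. The heat map of deviations shows this mixture. These counts were not computed over all genes, so no background share can be set beside them.

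**Figure D4:**
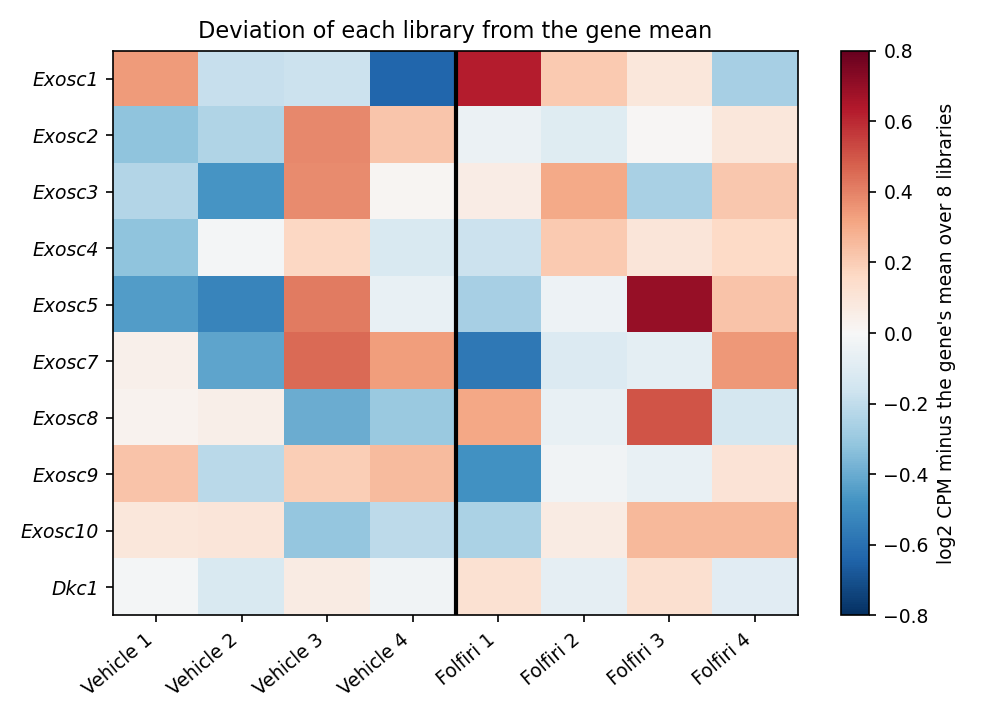
Deviation of each library from the gene's mean over the 8 libraries, as a log2 difference in CPM (colour scale, blue below and red above), for the 10 genes (rows) in Vehicle and Folfiri libraries (columns, separated by the black line). In Vehicle 2, 8 of 10 genes lie below their mean, and no colour is shared by all rows of either group.

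The genes whose level followed Exosc10 most closely over the 8 libraries were Mrpl45 (r = 0.9746), Mcm8 (0.958) and Arhgap1 (0.950). For Dkc1 they were Ssc4d (r = 0.9754), Abhd16a (0.972) and Ubxn6 (0.968). These are the top 3 of 12873 genes in each case, over 8 libraries that share depth and scaling, and are given as a description. Exceeding r = 0.9 were 0.124% of genes for Exosc10 and 0.218% for Dkc1.

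Among the other exosome genes, the nucleases of the Dis3 family showed no called difference either. Dis3, the catalytic subunit of the nuclear complex, stood at 23.3, 16.9, 20.4 and 18.4 CPM in Vehicle and 16.2, 17.1, 19.2 and 14.2 CPM in Folfiri, with a log2 fold change of -0.24 (95% interval -0.61 to 0.13). Dis3l, its cytoplasmic counterpart, was at 50.8 ± 3.33 and 56.0 ± 5.24 CPM (SD, n = 4 each), with log2 fold change 0.14. Dis3l2, which degrades uridylated RNA without the exosome, was at 22.2 ± 3.74 and 18.6 ± 7.82 CPM, with 8.47 CPM in Folfiri 1 and 17.2 to 26.9 in the other Folfiri libraries.

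Of 21 cofactors of the exosome, 0 passed the test and 0 had an unadjusted p under 0.05, and 8 had a log2 fold change above 0 and 13 below. Of all genes tested 0.00776% passed, 9.5% had such a p and 51.4% had a log2 fold change above 0. The median of the cofactors was -0.03, from -0.076 without Folfiri 4 to 0.018 without Folfiri 3. Skiv2l, the helicase of the cytoplasmic SKI complex, was at 36.4 ± 6.63 CPM in Vehicle muscle and 27.6 ± 6.498 CPM in Folfiri (SD over 4 libraries each), with log2 fold change -0.40. Zfc3h1, which links nuclear poly(A) RNA to the exosome, was at 21.3 ± 3.27 and 27.9 ± 7.97 CPM, with log2 fold change 0.39. Hbs1l, a GTPase of stalled ribosomes, had a log2 fold change of -0.17.

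The other proteins of H/ACA particles and their assembly factors had 0 of 11 genes past the test, where 0.00776% of all genes passed. At an unadjusted p under 0.05 were 0 of the 11 and 9.5% of all genes. The median of the 11 was -0.07. In 5 of the 11 the log2 fold change was above 0, as it was in 51.4% of all genes. The median ran from -0.13 without Folfiri 4 to -0.0017 without Folfiri 1, and was above 0 with voom (0.011) and without both Vehicle 2 and Folfiri 1 (0.029). Shq1, the chaperone that holds free dyskerin, was at 2.19, 2.34, 1.83 and 1.45 CPM in Vehicle and 0.933, 0.955, 1.21 and 1.67 CPM in Folfiri. Folfiri 4 lay above Vehicle 4, and the log2 fold change was -0.72 (95% interval -1.45 to 0.02, edgeR adjusted p = 0.536). Ruvbl1, an ATPase of particle assembly, had a log2 fold change of -0.40, and Wrap53, which brings telomerase RNA to Cajal bodies, of 0.38. Nop10, a core protein bound to dyskerin, was at 45.4 ± 23.04 and 50.03 ± 14.3 CPM (SD, n = 4 each), and Nolc1, a nucleolar partner of H/ACA particles, at 40.3 ± 6.72 and 36.1 ± 11.2 CPM.

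Pseudouridine synthases that act without a guide RNA counted 12. Of these 0 passed the test, against 0.00776% of all genes, and 0 had an unadjusted p under 0.05, against 9.5%. Their log2 fold changes were above 0 in 6, against 51.4% of all genes, and below 0 in 6. The median of the 12 was -0.01, which ran from -0.047 without Folfiri 2 to 0.065 without Folfiri 3. Pusl1 had a log2 fold change of 0.31 and Pus7l of 0.30. Pus10, a tRNA enzyme, had -0.19 and Trub2, a mitochondrial enzyme, -0.05. The 4 proteins of box C/D particles, which carry out 2′-O-methylation beside the H/ACA class, had a median of -0.11, from -0.17 without Folfiri 3 to -0.081 without Folfiri 1. Of these 4 genes 0 passed the test and 0 had an unadjusted p under 0.05. Among them the methyltransferase Fbl had a log2 fold change of -0.35, Nop58 of -0.13 and Nop56 of -0.09.

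The list of rRNA synthesis and ribosome assembly, the pathway that exosome and dyskerin serve, had no called gene, and its median lay below that of all genes. Of 57 genes 0 passed the test and 5 had an unadjusted p under 0.05, 2 of them higher and 3 lower in Folfiri. Of all genes tested 9.5% did, 5.48% higher and 4.02% lower. In all, 46 had a log2 fold change below 0, where 48.6% of all genes did. The median was -0.16. It was -0.076 with 38 genes below 0 when Folfiri 1 was left out, and -0.19 without Folfiri 4. With libraries scaled by their totals alone, which moves the median of all genes to 0.14, it was -0.042 with 31 genes below 0, and 46 genes lay below that median of all genes, against 47 under TMM. Ncl, the abundant nucleolar protein nucleolin, was at 259, 215, 241 and 229 CPM in Vehicle and 115, 174, 195 and 200 CPM in Folfiri. These groups did not overlap, as in 3 of the 57 genes, all lower, and in the 2.66% of all genes that were lower in that way. The log2 fold change of Ncl was -0.46 (95% interval -0.87 to -0.05, edgeR adjusted p = 0.494). Emg1, which methylates a pseudouridine of 18S rRNA, was at 58.6 ± 7.22 and 81.5 ± 16.1 CPM (SD, n = 4 each), with log2 fold change 0.47 (edgeR adjusted p = 0.46). Utp3, a factor of the small subunit, had a log2 fold change of -0.45, the helicase Ddx10 of -0.56 and Rrn3, which starts RNA polymerase I, of -0.19.

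Genes of decay by other routes, deadenylation, decapping and the 5′ to 3′ exonucleases, had 0 of 21 past the test and 1 lower at an unadjusted p under 0.05, where 4.02% of all genes were lower at that p. That gene was Cnot1, the scaffold of the CCR4-NOT deadenylase, at 129, 128, 119 and 122 CPM in Vehicle and 81.1, 105, 101 and 104 CPM in Folfiri. In 2 of the 21 genes, Cnot1 among them, the groups did not overlap and Folfiri was lower, which held for 2.66% of all genes. The log2 fold change of Cnot1 was -0.35 (edgeR adjusted p = 0.499). Ddx6, a helicase of decapping, had -0.29, the deadenylase Cnot8 -0.28 and Lsm14a, a partner of Ddx6, -0.0044 on the log2 scale. The list's median was -0.04, with 8 genes above 0 and 13 below, where 51.4% of all genes were above 0. It ran from -0.12 without Folfiri 1 to 0.014 without Vehicle 1 and was also above 0 without Folfiri 4, at 0.0083.

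**Figure D5:**
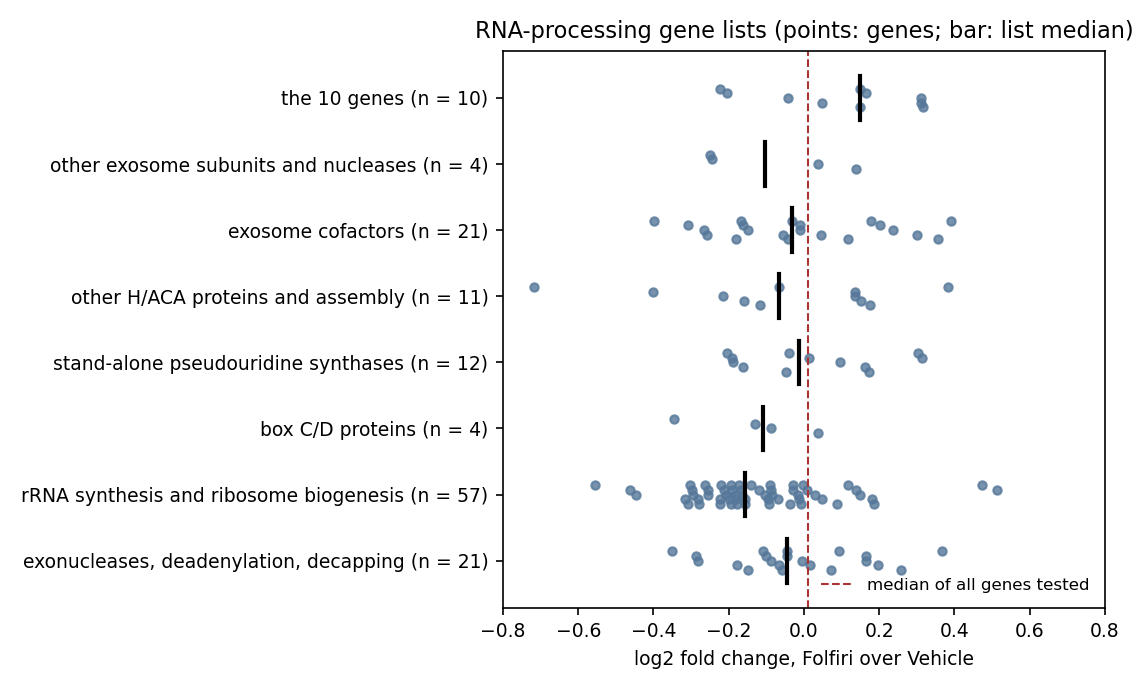
Log2 fold change of Folfiri over Vehicle (horizontal axis) of every gene of the 8 lists, with a bar at each list's median and a dashed line at the median of all genes, 0.01. The medians run from -0.16 in the ribosome assembly list to 0.15 in the 10 genes.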

How the data were processed

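RNA-seq was available for quadriceps of 4 Vehicle and 4 Folfiri mice, grouped by the sample titles. Per the study's methods, the counts come from bamutils and RefSeq gene models on SOLiD reads that the authors placed on mm9 and its exon junctions using bfast. Ribosomal and transfer RNA and reads of poor quality do not enter them. Libraries were strand-specific. Whether counting used strand is not given in the sources used here. The deposited raw counts hold the authors' reads for each gene and library, without scaling. The authors' scaled counts and the columns of their own comparison (log fold change, p and FDR) were not used. Transcript length came from the same deposited table.

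With R 4.3.3, TMM scaling and the quasi-likelihood test of edgeR 4.0.16 were applied to the 12883 genes that had at least 40 summed reads. P-values were adjusted over all of these genes by Benjamini-Hochberg. The common biological coefficient of variation was 0.261, over 6 residual degrees of freedom. Correlations between replicates ran from 0.948 to 0.978, and no pair of libraries agreed within sampling noise. The test was tried on simulated data of 12864 genes, with changes planted only in genes above a minimum mean count. It recovered 55% of the genes changed 2-fold and 98% of those changed by 2 on the log2 scale. Each group is given as 4 mice, and the test sets the difference between groups against the spread between mice. Intervals cover the spread in the fit. CPM per kb divided CPM by transcript length. Correlations used log2 CPM with a prior count of 2. BLAST 2.17.0 searched the mouse genome for copies of at least 300 bases covering at least 30% of a transcript. Promoter windows are those of RefSeq.

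The genes and lists were chosen with earlier results of these data known. One name, Mpp6, was taken out of the cofactor list after the data were seen, since the mouse symbol may denote another gene. Named genes are the 10, and of each list those called, up to 3 with the smallest unadjusted p and the 2 with the highest mean CPM. For Exosc10 and Dkc1 the 3 genes with the highest r were added, and of each marker list the most abundant marker. Exosc6 falls outside this rule and is marked so in the text. The values of 1 gene that the rule names are not reported here. Protein sequences were not analysed here. Alternatives were the exact and likelihood ratio tests, DESeq2 1.42.0, voom of limma 3.58.1 with quality weights, RLE size factors, library totals, filterByExpr, no filter, the replicate number as a block, leaving out both Vehicle 2 and Folfiri 1, and leaving out each library in turn.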

Additional observations from a re-analysis of the deposited data

Results flagged for a closer look

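Exosc9 in Vehicle muscle had a library that stood apart, Vehicle 2 at 19.4 CPM against 25.9 to 26.9 CPM in the other 3. Its gap to the nearest library was 0.862 of the group's range, which is past the 95% critical value of Dixon's test for 4 libraries. It was the only one of 20 groups (10 genes in 2 groups) past its critical value, and chance alone gives about 1 in 20. Vehicle 2 also had the lowest muscle-fibre marker sum of Vehicle, 119035 CPM, and the highest adipocyte sum, 1997 CPM, and the part of these in the value was not tested.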

How the results depend on the processing

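Over 18 alternatives, 0 of the 10 genes passed the test in either direction, 0 had an unadjusted p under 0.05, and the smallest adjusted p was 0.402, for Exosc1 with the replicate block. Of 180 log2 fold changes 176 kept their direction. Exosc2 turned to 0.085 with library totals, which move the median of all genes from 0.011 to 0.14, so that its difference from that median was -0.053 before and -0.054 after. It ran from -0.147 to 0.085 when each library was left out, above 0 without Vehicle 3 (0.085) or Vehicle 4 (0.029), and Dkc1 turned to -0.012 without both Vehicle 2 and Folfiri 1. The median of the 10 genes ran from 0.082 to 0.16 when each library was left out, and was 0.27 with library totals and 0.088 without both libraries. Over all genes, higher and lower calls numbered 65 and 21 in the exact test, 76 and 25 in the likelihood ratio test, 52 and 25 with DESeq2, and 2 and 1 with voom. With library totals 3 genes were higher, with the replicate block 3, without both libraries 0, and with each library left out 0 to 1 higher and 0 lower. DESeq2 gave no adjusted p for 16 genes, and the cause of the differences between tests was not tested. The main test did not take replicate numbers to pair the samples, and no pairing is given in the sources used here. Libraries of one number deviated together with r of 0.3003, 0.136, 0.0557 and 0.196. Of the 4 Vehicle libraries, 2 correlated best with their own number. These values do not settle whether the numbers pair the samples. With the replicate block, unadjusted p in edgeR's quasi-likelihood test was 0.058 for Exosc1 and 0.076 for Exosc5. In the main fit these were 0.211 and 0.249. Of all genes, 1663 had an unadjusted p under 0.05 with the block and 1224 without it. The median log2 fold change of the 10 genes was 0.16 with the block. Reads per gene, 880 for Exosc2 to 3786 for Dkc1, limit the precision of the levels, and counting alone gives 9.73% and 4.72% for these genes. Spread between the mice adds to this, with a median biological coefficient of variation of 0.212 over the 10 genes. The intervals of the 10 genes had a median width of 0.89 on the log2 scale.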
